A study of Rattus norvegicus with 62 samples.

Results

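The effect of low-dose diethylnitrosamine at 5w was read from 9 of the 62 liver arrays of a rat initiation-promotion study, as the 5 animals titled DEN3/PB at 5w set against the 4 titled MC/PB at 5w, over all measured genes. The DEN3/PB rats had received diethylnitrosamine (DEN) at 3 mg/kg as initiator, and the MC/PB rats had received methylcellulose, the initiator's vehicle. The initiation period was 1 or 2 weeks and was followed by 2 weeks without treatment, and both groups then drank phenobarbital (PB) at 500 ppm. Liver was removed by partial hepatectomy 1 week into the phenobarbital period, so both groups carried phenobarbital's own effect, and the values below are differences between animals that all drank it. All were male rats of the outbred stock Crj:CD(SD)IGS, and their age is not given in the sources used here. For comparison the 5w arrays also held 4 DEN30/PB livers (DEN at 30 mg/kg), 5 TAA/PB (thioacetamide, 45 mg/kg), 5 MP/PB (methapyrilene, 100 mg/kg), 4 APAP/PB (acetaminophen, 1000 mg/kg) and 4 MC/water livers. Each animal gave a second sample at 10w, after 6 weeks of phenobarbital in total where it was given. The labels number the animals within each group, and these numbered animals are the replicates.

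DEN is a nitrosamine that liver cytochrome P450 enzymes, chiefly Cyp2e1, turn into an ethylating agent. The agent forms adducts on DNA bases, some of which are removed by the alkyltransferase Mgmt. DNA damage stabilises the transcription factor p53, which raises genes such as Cdkn1a, a cell cycle inhibitor, and Mdm2, the ubiquitin ligase that degrades p53. In rat liver, DEN followed by phenobarbital is a standard way to obtain preneoplastic foci, small groups of altered hepatocytes marked by the placental glutathione transferase Gstp1.

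Signals are MAS5 intensities as the authors scaled them, and a difference is that of the group means of log2(signal + 25), given with its standard error from limma. A gene was tested if its signal reached 100 on at least 4 arrays. The median signal of the 9 arrays was 103 to 121, and 50.6% to 54.2% of probe sets reached 100. Hepatocyte markers were high in both groups (Alb 47468 to 56912 in DEN3/PB and 45145 to 63060 in MC/PB), and markers of other liver cells were also measured, such as Cd3e of lymphocytes, S100a9 of granulocytes and Epcam of bile ducts (779 to 1163 in DEN3/PB and 912 to 1256 in MC/PB). Cd8a, S100a8 and Krt7, further markers of these 3 cell types, did not pass the minimum for testing. In such bulk tissue, fewer cells of a type and less RNA per cell cannot be told apart. The arrays were split into a pair of array sets by the main pattern in their deviations from group means, of unknown origin. Set 1 held 3 DEN3/PB and 2 MC/PB arrays, and set 2 held 2 of each. Deviations from a group's own mean cancel within the group, so every group has arrays in both sets by construction. A batch that differed between DEN3/PB and MC/PB could not be seen this way. MC/PB animal 4 stood apart in stress genes. The inducible chaperone gene Hspa1a was at 89.1 to 164 in the DEN3/PB livers, and at 4325 in this animal against 116 to 242 in the other 3 MC/PB livers. Hspa1a was named for its small p among the heat shock genes, so this animal was not singled out before the comparison. For several results that turn on this animal, values without it are also given.

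Few genes differed between DEN3/PB and MC/PB livers at 5w. Of 10491 genes tested, 3 rose (0.0286%) and 1 fell (0.00953%) at a limma adjusted p of 0.05, together 0.0381% of the genes. The gain was in the protease gene Adam8, the non-coding RNA gene Pvt1 and the proton pump gene Atp6v1d, and the loss was in the nucleotide synthesis gene Prps2. Without adjustment, 542 genes (5.17%) had a p under 0.05, of which 321 were higher (3.06%) and 221 lower (2.11%). Signals of the groups did not overlap for 207 genes (1.97%), with 115 higher (1.1%) and 92 lower (0.877%). Leaving out MC/PB animal 1 or DEN3/PB animal 4 left 2 calls, Adam8 and Pvt1. Without MC/PB animal 4 there were 5 calls, Adam8, Pvt1, Atp6v1d, Cdkn1a and Mybl1. With the replicate number as a block there were 8 calls, which held Adam8, Pvt1, Atp6v1d and Prps2. With the array set as a block, a split drawn from these same data, there were 6, which also held all 4. With only the groups compared there were 2 calls, of which Adam8 was the 1 shared with these 4. The number of arrays limits the precision of every value below.

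Adam8, which encodes a membrane-anchored metalloproteinase of the ADAM family best known from myeloid cells, showed the largest rise among the genes called. Its signals were 382, 355, 191, 175 and 567 in the 5 DEN3/PB livers, against 54.6, 43.5, 52.1 and 48.3 in the 4 MC/PB livers. Each DEN3/PB liver lay above each MC/PB liver, and all MC/PB livers lay below the signal minimum of 100. The difference was 2.15 ± 0.25 (SE, n = 5 and 4, limma adjusted p = 1.84e-05), and with 100 taken as the floor for MC/PB the rise was at least 3.03-fold. It was 2.25 within array set 1 and 1.96 within array set 2. The summed signal of 17 macrophage markers overlapped between the groups, at 17860 to 29270 in DEN3/PB livers and 20320 to 28210 in MC/PB livers. Of the 9 listed granulocyte markers on the arrays, 1 passed the minimum for testing. The part of myeloid cells in the rise of Adam8 was not tested. The other 14 members of the ADAM and ADAMTS list that were measured had differences from -0.38 for Adam9 to 0.27 for Adamts5, and none of them was called.

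Pvt1, a long non-coding RNA gene that lies next to Myc and is itself a p53 target in human and mouse cells, had signals of 219, 351, 197, 143 and 298 in DEN3/PB livers, against 85.3, 91.2, 47.7 and 81.5 in MC/PB livers. The groups did not overlap. The difference was 1.36 ± 0.21 (limma adjusted p = 0.00203), or at least 2.30-fold over the floor of 100, with 1.54 in array set 1 and 1.18 in array set 2. The call was lost with only the groups compared. Its neighbour Myc, a growth-promoting transcription factor, had 849, 402, 390, 548 and 323 in DEN3/PB livers and 763, 455, 274 and 942 in MC/PB livers. These overlapped widely (difference -0.21 ± 0.43, limma adjusted p = 0.999). Among the 21 measured genes of the list of Myc, its neighbours and its targets, Pvt1 was the 1 called.

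Atp6v1d encodes a subunit of the V-ATPase, the pump that acidifies lysosomes and endosomes. Its signals were 3081, 3829, 3377, 4725 and 4149 in DEN3/PB livers, against 2221, 2559, 2274 and 2386 in MC/PB livers. The groups did not overlap and they differed by 0.68 ± 0.12 (limma adjusted p = 0.00879; 0.64 in set 1 and 0.78 in set 2). None of the pump's other 16 measured subunits was called. Atp6v1b2 had a difference of -0.32 ± 0.13 (limma adjusted p = 0.871), and the median of the list was -0.01. Without MC/PB animal 1 or DEN3/PB animal 4 the limma adjusted p of Atp6v1d was 0.0621 and 0.0596. Its call was also lost with only the groups compared.

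Prps2, which makes phosphoribosyl pyrophosphate for nucleotide synthesis, fell to signals of 355, 406, 261, 390 and 468 in DEN3/PB livers, against 767, 611, 601 and 616 in MC/PB livers. The groups did not overlap, with a difference of -0.76 ± 0.15 (limma adjusted p = 0.0379; -0.90 in set 1 and -0.59 in set 2). This call was the least secure of the 4. It was lost with 8 of the 9 animals left out in turn (adjusted p up to 0.109), and it held without DEN3/PB animal 5. It was also lost with no filter on low signals (0.0583), without the variance trend (0.0558) and, like those of Pvt1 and Atp6v1d, with only the groups compared (0.216). The gene's other probe sets gave -0.12 and -0.54 and were not called. Of the other 25 measured genes of nucleotide synthesis, none was called, and the thymidylate synthase gene Tyms had the highest difference (0.43).

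**Figure D1:**
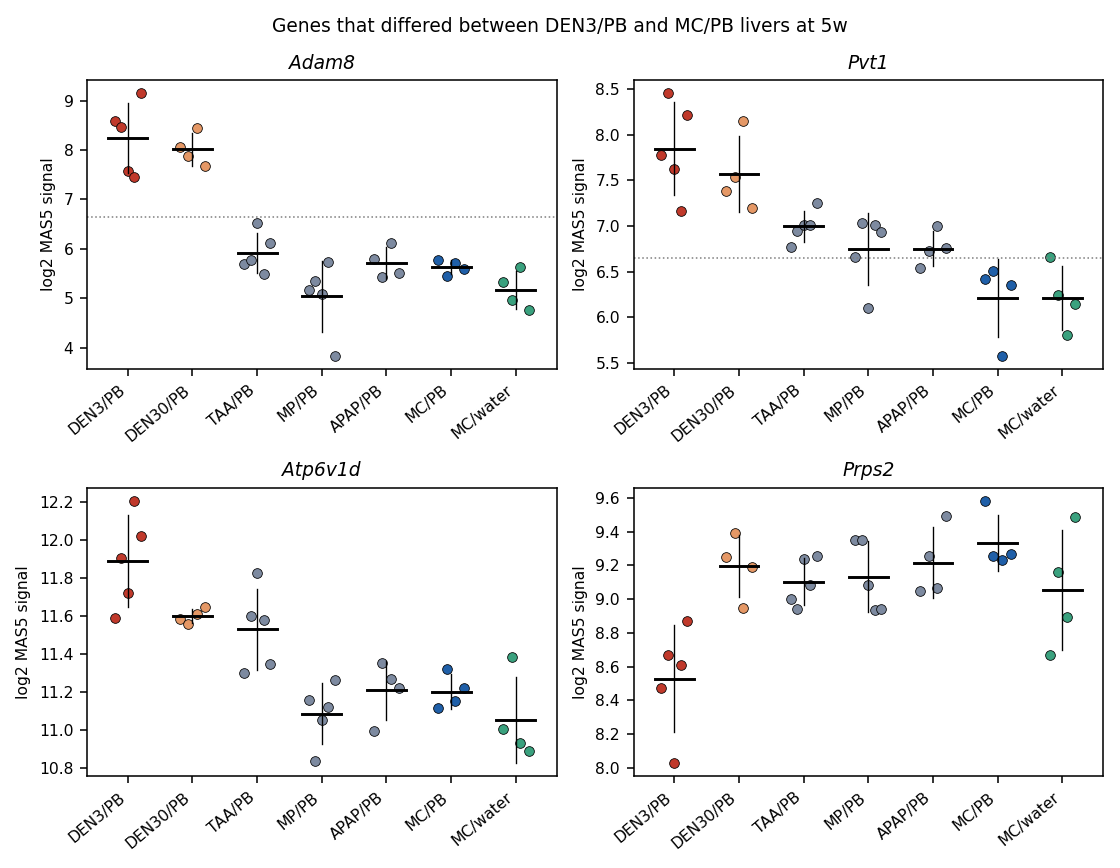
Signals (log2 MAS5 signal, y axis) of the 4 genes called between DEN3/PB and MC/PB livers at 5w, in all 7 groups of 5w (x axis). Each point is an animal, the thick bar is the group mean and the thin line is 1 SD on either side, and the dotted line marks a signal of 100. DEN3/PB and MC/PB points do not overlap in any of the 4 panels, and Adam8 is also high in DEN30/PB.

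Genes that p53 activates were looked at next. None of the 26 that were measured, of 39 listed, was called in DEN3/PB against MC/PB, while 5 were higher and 0 lower at an unadjusted p under 0.05, beside 3.06% and 2.11% of all genes. Their median difference was 0.10, against 0.00 for all genes, and 17 of 26 lay above 0. Without MC/PB animal 4, 6 were higher at that level and 1 of them, Cdkn1a, was called. The 5 were Cdkn1a, Tp53inp1, Ccng1, Mdm2 and Sulf2, of which Tp53inp1 (0.77), a p53-induced nuclear protein gene, was named after its value was seen. The list's median against the MC/PB mean was 0.10, 0.09, 0.14, 0.19 and 0.14 in the DEN3/PB animals, and 0.00, -0.05, -0.05 and 0.06 in the MC/PB animals.

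Cdkn1a (p21), the cyclin-dependent kinase inhibitor through which p53 halts the cell cycle, had signals of 1322, 1386, 1029, 2212 and 1277 in DEN3/PB livers, against 574, 542, 549 and 1215 in MC/PB livers. MC/PB animal 4, with 1215, was the 1 control that reached the DEN3/PB range. The difference was 1.02 ± 0.20 (limma adjusted p = 0.0526; 1.07 in set 1 and 1.08 in set 2), just short of the threshold. It passed with an offset of 100 (limma adjusted p = 0.039), with a minimum of 200 (0.0471) and over all probe sets (0.0452). It did not pass with the replicate block (0.0748). With the array set as a block it passed (0.0369), but the sets were drawn from these same data, which lowers the spread by construction. Without MC/PB animal 4 the difference was 1.30, with a limma adjusted p of 0.00066, and the gene also passed without DEN3/PB animal 3. The gene's other probe set gave 1.27 ± 0.40 and was not called.

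Ccng1 (cyclin G1), a p53 target that acts in the p53 and Mdm2 loop, had 1375, 2029, 1374, 1670 and 1752 in DEN3/PB livers, against 967, 972, 999 and 1328 in MC/PB livers. The groups did not overlap, with MC/PB animal 4 closest to the DEN3/PB livers (difference 0.61 ± 0.15, limma adjusted p = 0.175). Mdm2 had 1040, 1327, 1131, 1295 and 1192 in DEN3/PB livers, against 884, 975, 716 and 742 in MC/PB livers. These did not overlap either (0.52 ± 0.12, limma adjusted p = 0.0991), and 2 further Mdm2 probe sets gave 0.39 and 0.60. The heparan sulfatase gene Sulf2 was at 926 to 1307 in DEN3/PB livers and at 743 to 914 in MC/PB livers (0.45 ± 0.14, limma adjusted p = 0.434). Gadd45a, a stress gene that p53 and other factors induce, went the other way without passing the test (-0.51 ± 0.32, limma adjusted p = 0.997). Bax and Btg2 did not reach the minimum for testing.

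The upstream sequences of Cdkn1a and Ccng1 are shown because the p53 half-site can be read in them, and those of Mdm2 and Adam8 for contrast. Each is the 250 bases before the RefSeq gene start on the GRCr8 build, written 5′ to 3′ on the gene's strand, with matches to the p53 half-site, a palindrome of 10 bases, in capitals. The windows are chr20:7150682-7150931 (plus strand) for Cdkn1a, chr10:25684877-25685126 (minus strand) for Ccng1, chr7:55200792-55201041 (minus strand) for Mdm2 and chr1:204218323-204218572 (minus strand) for Adam8.
Cdkn1a: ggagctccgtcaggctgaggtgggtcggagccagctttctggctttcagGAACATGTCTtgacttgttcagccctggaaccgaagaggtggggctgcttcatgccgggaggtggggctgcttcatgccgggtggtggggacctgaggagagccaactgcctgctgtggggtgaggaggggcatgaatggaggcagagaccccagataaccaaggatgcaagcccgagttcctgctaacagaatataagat
Ccng1: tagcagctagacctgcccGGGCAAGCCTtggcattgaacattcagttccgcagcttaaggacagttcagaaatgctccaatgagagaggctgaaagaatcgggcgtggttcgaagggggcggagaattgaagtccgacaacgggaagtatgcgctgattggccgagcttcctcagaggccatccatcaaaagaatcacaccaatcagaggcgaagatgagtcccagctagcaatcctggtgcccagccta
Mdm2: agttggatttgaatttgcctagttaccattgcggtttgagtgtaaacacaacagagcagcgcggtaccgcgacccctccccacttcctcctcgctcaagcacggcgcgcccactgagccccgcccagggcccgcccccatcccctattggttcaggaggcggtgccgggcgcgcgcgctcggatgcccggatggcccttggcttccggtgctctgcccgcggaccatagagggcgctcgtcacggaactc
Adam8: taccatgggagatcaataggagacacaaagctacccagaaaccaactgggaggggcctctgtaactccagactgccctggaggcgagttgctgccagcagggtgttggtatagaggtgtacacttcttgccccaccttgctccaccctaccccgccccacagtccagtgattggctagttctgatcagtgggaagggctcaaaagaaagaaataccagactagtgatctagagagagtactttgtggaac
The match in Cdkn1a starts 201 bases before the gene start and that in Ccng1 232 bases before it. The windows of Mdm2 and Adam8 held no match on either strand. Sequence outside these 250 bases, introns included, was not searched, so a gene without a match here can hold one elsewhere. Of the 33469 windows of this length listed by RefSeq, 6.64% held a match, and of the 28 listed p53 targets with a window 6 did (21.4%): Aen, Ccng1, Cdkn1a, Ei24, Gadd45a and Sesn1. A match is a property of the letters and was not tested as a binding site.

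**Figure D2:**
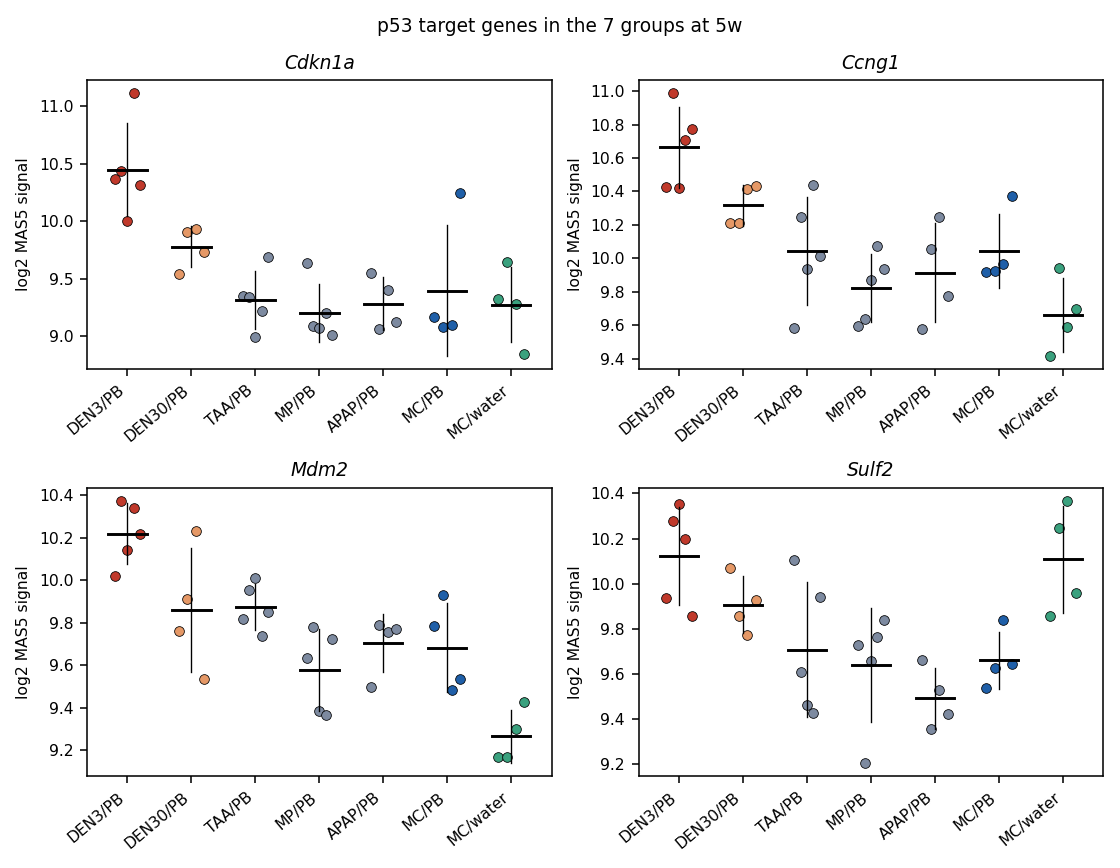
Signals (log2 MAS5 signal, y axis) of 4 p53 target genes in the 7 groups at 5w (x axis), with points for animals, thick bars for group means and thin lines for 1 SD on either side. DEN3/PB has the highest mean of the phenobarbital groups in each panel, and 1 MC/PB animal stands above the other 3 for Cdkn1a and Ccng1.

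The genes next to these in the DNA damage response showed less. Mgmt, which removes alkyl groups from guanine, was at 672 to 1468 in DEN3/PB livers and 512 to 931 in MC/PB livers, with a difference of 0.67 ± 0.21 (limma adjusted p = 0.501). It was the 1 of 21 measured genes of alkylation and oxidation repair with an unadjusted p under 0.05, beside 5.17% of all genes. None of the 16 measured genes of double-strand break repair and checkpoints passed even that level, and the histone gene H2ax stood at -0.21 ± 0.18. Of the 5 measured cyclin-dependent kinase inhibitors, Cdkn1a was again the 1 with a low p, and the other 4 lay between -0.04 and 0.31. Cyp2e1, the enzyme that activates DEN, had a difference of 0.03 ± 0.11.

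Cell cycle genes passed the test in neither direction. Of 40 measured, 0 were called, beside 0.0381% of all genes, and the median difference was -0.03. At an unadjusted p under 0.05, 2 were higher (Ccnd1 and Tyms) and 0 lower, beside 3.06% and 2.11% of all genes. Ccnd1, the cyclin of early G1, was at 933 to 1540 in DEN3/PB livers and at 638 to 1171 in MC/PB livers (0.52 ± 0.20, limma adjusted p = 0.804). Mki67, Top2a and Ccnb1, which are made in dividing cells, had differences of -0.13 ± 0.23, 0.01 ± 0.25 and -0.29 ± 0.28, and Top2a changed sign under several other settings. Markers of preneoplastic foci were not called either. Gstp1 had 1274, 932, 1479, 1114 and 1006 in DEN3/PB livers, against 1121, 853, 907 and 658 in MC/PB livers, with overlap and a difference of 0.39 ± 0.28 (limma adjusted p = 0.999). Of the 17 measured focus markers 0 were called. At an unadjusted p under 0.05, 1 was higher (Akr7a3) and 1 lower (Krt8), beside 3.06% and 2.11% of all genes. Among 8 oncofetal genes, which are active in fetal liver and again in tumours, the proteoglycan gene Gpc3 was at 52.6 to 121 in DEN3/PB livers and at 11.5 to 75.1 in MC/PB livers (0.83 ± 0.30, limma adjusted p = 0.676). Afp stood at 0.10 ± 0.14.

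All 20 measured genes of cholesterol synthesis had lower means in DEN3/PB than in MC/PB livers, though 0 of them were called. Of the 20, 7 were lower and 0 higher at an unadjusted p under 0.05, beside 2.11% and 3.06% of all genes, and the median difference was -0.32. Ebp, the sterol isomerase, was at 3879 to 4659 in DEN3/PB livers and at 5190 to 5646 in MC/PB livers, without overlap (-0.33 ± 0.08, limma adjusted p = 0.175). Pmvk, the phosphomevalonate kinase, did not overlap either (-0.32 ± 0.10), and the lanosterol synthase Lss and the methyl oxidase Msmo1 had differences of -0.85 ± 0.28 and -0.71 ± 0.24. The animals differed within each group. The list's median against the MC/PB mean was -0.02, -0.25, -0.75, -0.26 and -0.15 in the DEN3/PB animals, and 0.21, 0.14, 0.00 and -0.27 in the MC/PB animals, so that MC/PB animal 4 lay within the DEN3/PB range. Without DEN3/PB animal 3 the median was -0.15 with 16 of 20 below 0, and without MC/PB animal 4 it was -0.37 with 14 of 20 at an unadjusted p under 0.05. The 4 MC/water animals, which drank no phenobarbital, had medians of -0.59 to -0.18. The list's median was also -0.21 for DEN30/PB against MC/PB, and it was -0.04 for DEN3/PB against DEN30/PB. Against the mean of the TAA/PB, MP/PB and APAP/PB groups it was -0.20. There 5 were lower and 0 higher at an unadjusted p under 0.05, beside 4.38% and 4.67% of all genes.

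**Figure D3:**
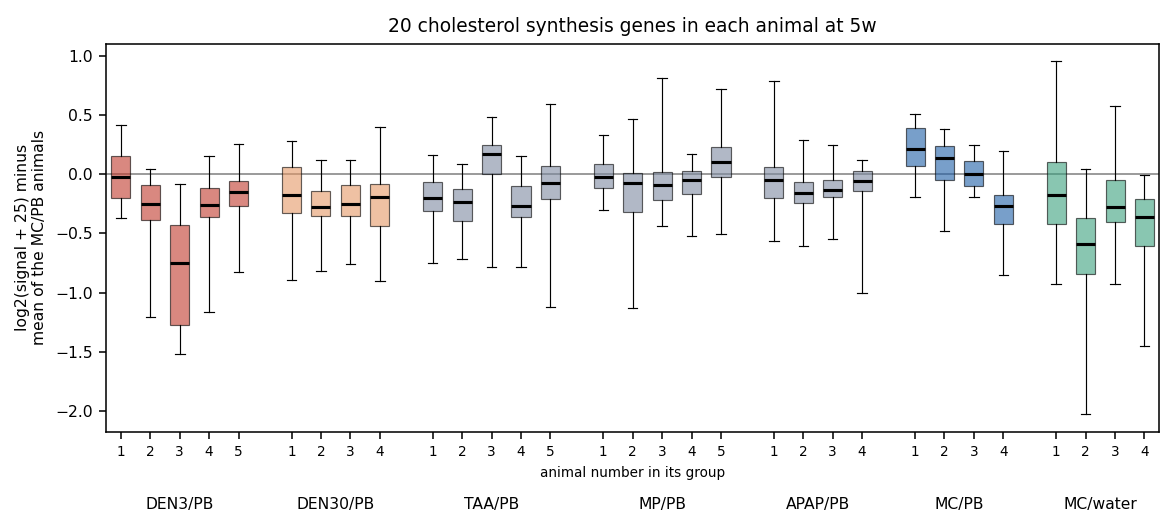
Differences of 20 cholesterol synthesis genes in each animal at 5w from the mean of the MC/PB animals, as log2(signal + 25) (y axis), by animal and group (x axis). Boxes span the quartiles of the 20 genes, thick lines mark the median and whiskers reach the lowest and highest gene. DEN3/PB animal 3 is the lowest of its group with a median of -0.75, and MC/PB animal 4 lies below the other MC/PB animals at -0.27.

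Fatty acid synthesis genes were called in neither direction. Of 24 measured, 19 had lower means in DEN3/PB livers and the median was -0.15, with 2 lower and 0 higher at an unadjusted p under 0.05, beside 2.11% and 3.06% of all genes. Acss2, which makes acetyl-CoA from acetate, was at 2706 to 3515 in DEN3/PB livers and at 3712 to 5099 in MC/PB livers (-0.45 ± 0.12, limma adjusted p = 0.175). Pnpla3, a lipid droplet hydrolase, was at 68.0 to 423 in DEN3/PB livers and 112 to 1014 in MC/PB livers, a wide overlap (-1.16 ± 0.66, limma adjusted p = 0.979).

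Genes that phenobarbital induces had a median difference of 0.01 over the 25 measured, with 0 called. Cyp3a2, a P450 that phenobarbital raises, had a difference of 0.00 ± 0.07, and Aldh1a1 had one of 0.07 ± 0.30. Cyp3a18 and the drug exporter gene Abcb1a were the 2 with an unadjusted p under 0.05 (0.45 ± 0.14 and 0.69 ± 0.26), beside 5.17% of all genes. Of 14 male-biased liver genes, 6 were higher and 0 lower at that level, beside 3.06% and 2.11% of all genes, and 0 were called. Their median was 0.06. Leaving out MC/PB animal 4 gave 4 higher and 0 lower at that level, beside 2.24% and 1.78% of all genes, with a median of 0.07. Against the mean of the TAA/PB, MP/PB and APAP/PB groups, 0 of the 14 were higher and 3 lower at that level, beside 4.67% and 4.38% of all genes. The median there was -0.06. The lipocalin Pbsn had 1057, 144, 79.3, 221 and 1215 in DEN3/PB livers, while all 4 MC/PB livers were at 33.6 or less. This was at least 3.18-fold over the floor of 100 (limma adjusted p = 0.0991), with a wide spread among DEN3/PB livers. Hsd11b1, which regenerates active glucocorticoid, and the urinary protein gene Mup5 did not overlap between the groups (0.31 ± 0.09 and 0.43 ± 0.14). Of 11 female-biased genes 2 were higher and 2 lower than in MC/PB at that level, beside 3.06% and 2.11% of all genes. The prolactin receptor gene Prlr was at 104 to 590 in DEN3/PB livers and 238 to 1362 in MC/PB livers (-1.59 ± 0.47, limma adjusted p = 0.386), while Fmo1 was higher (0.90 ± 0.26).

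Of 21 heat shock genes measured 0 were called, and 3 were lower and 0 higher at an unadjusted p under 0.05, beside 2.11% and 3.06% of all genes. Without MC/PB animal 4 this count was 0 and the median 0.01. Hspa1a itself had a difference of -1.46 ± 0.55 (limma adjusted p = 0.807). Of 33 interferon and antigen presentation genes 0 were called, with 28 above 0, a median of 0.23 and 4 higher and 0 lower at an unadjusted p under 0.05 (Tap1, Ciita, Psmb9 and RT1-Bb), beside 3.06% and 2.11% of all genes. RT1-Bb stood at 1.42 ± 0.67, but its other probe set gave -3.35 ± 1.21, so its direction is not settled. Within array set 2, RT1-Bb and Psmb9 were at -0.12 and -0.21. DEN3/PB animal 1 carried the highest signals of these, with 1500 for the peptide transporter Tap1, against 668 to 801 in the other DEN3/PB livers, and 450 to 684 in MC/PB livers. Without it the count was 1 and the median 0.13. Without DEN3/PB animal 2 the count was 8 and the median 0.33, without DEN3/PB animal 3 the count was 2, and without MC/PB animal 2 the median was 0.11. The summed signal of 15 lymphocyte markers was 2078 to 2583 in DEN3/PB livers and 1846 to 2331 in MC/PB livers, and the macrophage sums are given above. Animal 1 of each group had its group's highest macrophage sum, and the part of such cells in the interferon genes was not tested.

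Among the cell type markers themselves, the granzyme gene Gzmk was at 153 to 199 in DEN3/PB livers and at 98.4 to 124 in MC/PB livers (0.56 ± 0.19, limma adjusted p = 0.58), and Gzma stood at 0.49 ± 0.19. Of the 15 lymphocyte markers 13 lay above 0 and 2 below, with a median of 0.18. The lymphocyte gene Cd3e overlapped, at 13.7 to 109 in DEN3/PB livers and 66.8 to 108 in MC/PB livers. The macrophage list had a median of 0.11, with 12 of 17 above 0. Without MC/PB animal 4 the median was 0.03, with 9 of 17 above 0. With all animals in, 2 of the 17 were lower and 0 higher at an unadjusted p under 0.05, beside 2.11% and 3.06% of all genes. These were Cd14, the lipopolysaccharide co-receptor (-0.80 ± 0.23, limma adjusted p = 0.377), and Cd163 (-0.43). Cd163 was at 224 to 445 in DEN3/PB livers and 347 to 462 in MC/PB livers. Of 30 stellate cell and matrix genes 0 were called, and 18 lay above 0 and 12 below, with a median of 0.04. Without MC/PB animal 4, 12 lay above 0 and 18 below, with a median of -0.04. Without MC/PB animal 2 the median was 0.13. The lysyl oxidase Lox, which cross-links collagen, was at 153 to 471 in DEN3/PB livers and at 66.4 to 137 in MC/PB livers, without overlap (1.22 ± 0.30, limma adjusted p = 0.15). Cygb, a stellate cell globin, stood at 0.50 ± 0.14. The collagen gene Col1a1 overlapped, at 287 to 480 in DEN3/PB livers and 305 to 552 in MC/PB livers. Summed red cell markers were at 16200 to 33210 in DEN3/PB and at 7330 to 29420 in MC/PB livers.

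**Figure D4:**
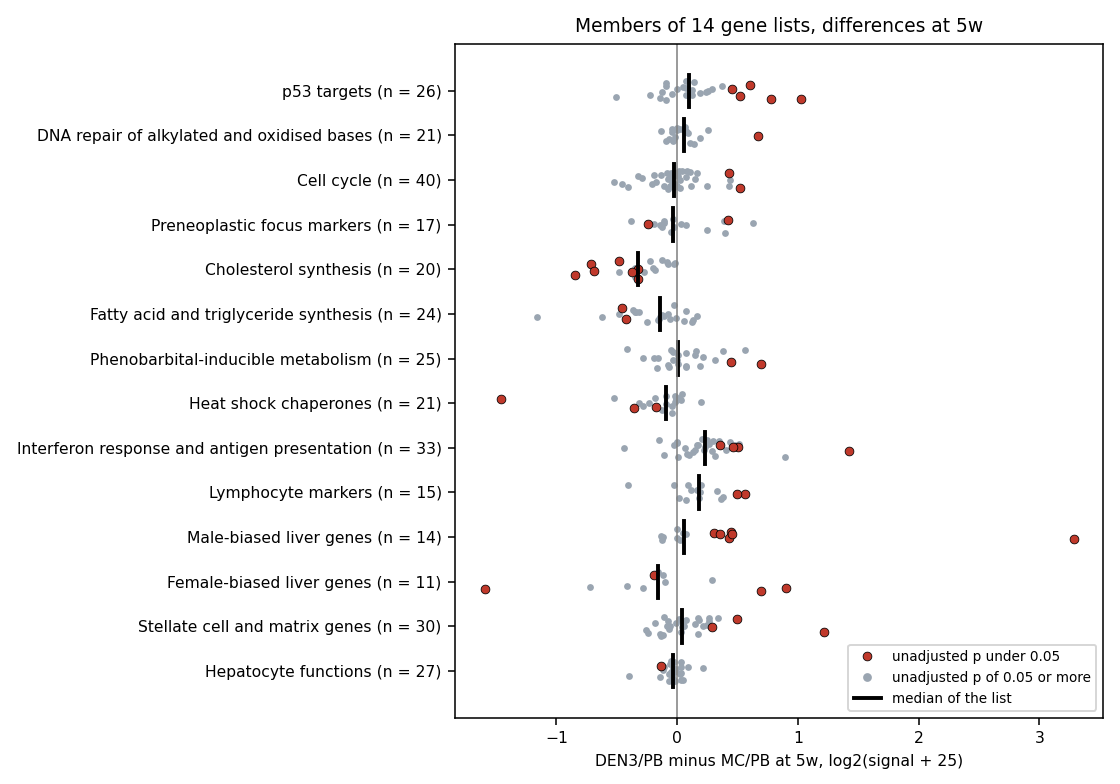
Differences between DEN3/PB and MC/PB livers at 5w (x axis, log2(signal + 25), positive where DEN3/PB is higher) for the measured members of 14 gene lists (y axis, with the number measured). Each point is a gene, red points have an unadjusted p under 0.05 and black bars mark list medians. All cholesterol synthesis genes lie below 0, and the single far point among male-biased genes is Pbsn, whose MC/PB signals are all below 100, so that its place on the axis is not a measured fold.

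The 10 genes with the smallest p in each direction included several that fell just short of the test. Higher and not called were Mybl1, a MYB family transcription factor (354, 569, 331, 421 and 668 in DEN3/PB, 91.9, 128, 163 and 232 in MC/PB; 1.48 ± 0.31, limma adjusted p = 0.0779), and with the same adjusted p Plcxd2, the monocarboxylate transporter gene Slc16a6, Poteml2 and the junction protein gene Jam3. None of these 5 overlapped between the groups. Lower and not called were the retromer gene Vps26b (-0.37 ± 0.08, limma adjusted p = 0.0779, with its other probe sets at 0.02 and 0.17), the scramblase gene Xkr8 (-0.55 ± 0.13), the flavin monooxygenase gene Fmo5 (-1.17 ± 0.27), Rnf130, Dap, Acad8 and Adh5. Fmo5 was at 1701 to 4491 in DEN3/PB livers and 5605 to 8736 in MC/PB livers. With the replicate number as a block Plcxd2, Fmo5, Acad8 and Irx1 passed the threshold, of which Irx1 was named after its value was seen. With the array set as a block, a split drawn from these same data, Adh5 passed (limma adjusted p = 0.0369).

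DEN3/PB livers were next set against DEN30/PB livers, which asks what a higher dose of the same initiator adds. Only 1 gene was called (0.00953% of those tested), with 515 genes (4.91%) at an unadjusted p under 0.05, 196 higher (1.87%) and 319 lower (3.04%) in DEN3/PB. That gene was the elastase gene Cela1, at 665 to 1335 in DEN3/PB livers and at 246 to 381 in DEN30/PB livers (difference 1.47 ± 0.25, limma adjusted p = 0.0204). Cela1 did not differ between DEN3/PB and MC/PB at the threshold (0.16 ± 0.25), and its call was lost when any of DEN3/PB animals 2 or 5 or DEN30/PB animals 2 or 3 was left out. The comparisons of DEN3 and of DEN30 with MC/PB share their controls, and 12 genes were called after DEN30 (0.114%). Adam8 was 2.15 after DEN3 and 1.93 after DEN30, and Pvt1 was 1.36 and 1.11, with adjusted p of 0.999 for the differences between doses (0.22 ± 0.25 and 0.25 ± 0.21). Cdkn1a was 1.02 after DEN3 and 0.37 after DEN30, and the dose difference of 0.66 ± 0.21 was not called (limma adjusted p = 0.668). Prps2 was -0.76 after DEN3 and -0.13 after DEN30 (dose difference -0.63 ± 0.15, limma adjusted p = 0.212). Gstp1 was 0.39 after DEN3 and 1.58 after DEN30, where signals reached 5807, and its dose difference of -1.19 ± 0.28 had the same adjusted p of 0.212. Gstp1 was called between the doses with the replicate block, with the array set as a block, within array set 1 and without DEN30/PB animal 4.

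The TAA/PB, MP/PB and APAP/PB groups had received 3 other compounds in the place of DEN. Against the mean of these groups, 13 genes rose (0.124%) and 11 fell (0.105%) in DEN3/PB livers, together 0.229% of those tested. At an unadjusted p under 0.05 there were 949 (9.05%), 490 higher (4.67%) and 459 lower (4.38%). This contrast shares the DEN3/PB animals with the one above and does not use MC/PB. Of the p53 targets 4 rose and 0 fell: Cdkn1a by 1.15 ± 0.16 (limma adjusted p = 0.000299), Ccng1 by 0.72 ± 0.12 (0.00316), Mdm2 by 0.49 ± 0.09 (0.0114) and Sulf2 by 0.50 ± 0.11 (0.0322), while all 26 had a median of 0.24. Each of the 5 DEN3/PB livers had a Cdkn1a signal of at least 1029, against at most 825 in the 14 livers of the other 3 groups. Adam8 rose by 2.17 ± 0.20 (limma adjusted p = 4.93e-08) and was at 14.3 to 91.8 in those 14 livers. Pvt1 rose by 0.88 ± 0.16 (limma adjusted p = 0.0114) with 68.7 to 153 in those 14 livers, and Atp6v1d rose by 0.61 ± 0.09 (0.000822). The calls depended on single DEN3/PB animals, with 8 left without animal 2 and 13 without animal 3 or animal 4. Without animal 2, Mdm2, Sulf2 and Pvt1 had adjusted p of 0.0828, 0.136 and 0.0919, and without animal 5 Pvt1 had 0.053. With the replicate block Sulf2 and Mybl1 were not called (0.0519 each).

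Other genes passed in this contrast. Vxn rose by 1.65 ± 0.30 (limma adjusted p = 0.00885), with signals of 152 to 324 in DEN3/PB livers and 7.04 to 174 in the other 14, and Mybl1 rose by 1.16 ± 0.24 (0.0279). Cd14 fell to 1488 to 2548 in DEN3/PB livers, against 2284 to 5565 in the others (-0.91 ± 0.18, limma adjusted p = 0.0143), with some overlap. Dap, a gene first described in interferon-induced cell death, fell by 0.51 on the log2 scale, Xkr8 by 0.53, Prps2 by 0.59 and the caveolar gene Cavin3 by 0.68. Tap1 rose by 0.58 ± 0.13, and without DEN3/PB animal 1 it stood at 0.38 (limma adjusted p = 0.253). Acss2 lay at the edge of the threshold and lost its call in most alternatives.

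At 10w, 5 weeks on, the same animals gave a second sample. It came from the liver left after the partial hepatectomy, and after 6 weeks of phenobarbital in total, against 1 week at 5w. Elapsed time, time on phenobarbital and the hepatectomy cannot be told apart here. No gene's DEN3 effect was called as different between 10w and 5w in limma (0 of 10910, 0%). At an unadjusted p under 0.05 there were 246 (2.25%), 142 higher (1.3%) and 104 lower (0.953%). This fit, with its standard errors, treated both samples of an animal as independent, though they were correlated (consensus correlation 0.315). With the animal as a random block, 0 genes were called as well. The values of the 4 genes called at 5w and of Cdkn1a were nearer 0 at 10w. These genes were singled out here by their 5w differences, so smaller values at a second time can follow from that choice alone. None of their changes between weeks was called. Adam8 was at 53.5 to 170 in DEN3/PB and at 6.90 to 60.8 in MC/PB livers (1.08 ± 0.35), and Pvt1 was at 129 to 265 in DEN3/PB and at 86.7 to 124 in MC/PB livers (0.63 ± 0.25). Cdkn1a had a difference of 0.03 ± 0.20 at 10w, and its change between weeks was -0.99 ± 0.29. Atp6v1d and Prps2 stood at 0.16 ± 0.13 and -0.17 ± 0.25. Gstp1 stood at 0.90 ± 0.39, with 1 DEN3/PB liver at 4357, and none of these was called at 10w, where 2 of 10546 genes were (0.019%). The median of the cholesterol list was -0.34 at 10w.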

How the data were processed

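Total RNA from rat liver was biotin-labelled and hybridised to 1-colour Affymetrix arrays. The authors deposited 1 linear signal intensity per probe set and array, made with MAS5 (version 5.0) per the submitters' processing notes, and their scaling left a 2% trimmed mean of 500.231 to 500.272 on every array. Intensities were used as deposited and turned into log2(signal + 25). Of 31099 probe sets, 20826 carried 1 gene symbol, 436 several and 9780 none, and 57 control probe sets were left out. Each gene was represented by its probe set with the highest mean, and was tested if it reached 100 on at least 4 arrays. The test then covered 10491 genes in the 5w arrays, 10546 in the 10w arrays and 10910 when both weeks were joined.

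Linear models were fitted with limma 3.58.1 under R 4.3.3 (empirical Bayes variances with a trend on mean signal), over all 31 arrays of a week, or all 62 for the difference between weeks, with Benjamini-Hochberg adjustment over all genes tested and a threshold of 0.05. On simulated data for DEN3/PB against MC/PB over 10491 genes, 87 of 100 genes changed 2-fold and 99 of 100 changed 4-fold were recovered, and 10 of 196 calls were false. The simulation had 196 calls and the data had 4, and the adjustment is stricter on each gene where fewer pass. These rates therefore do not give the share of changed genes recovered here, where Fmo5 (-1.17) and Mybl1 (1.48) were not called. Array sets were taken from the sign of the first component of the deviations from group means (14.8% of their variance). A fit with the array set as a block thus removes spread that these same data defined, and its added calls are not independent support. Same-numbered DEN3/PB and MC/PB arrays had deviations that correlated at 0.121, 0.156, 0.113 and 0.127, so the numbers were treated as pairs for a blocked fit. All same-numbered arrays lay in the same array set, and the 6 pairs of differently numbered arrays within a set had a median correlation of 0.118.

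Named genes were those called, the 10 with the smallest p in each direction, up to 4 per described list by smallest p, a fixed set of genes of DEN and phenobarbital response, and up to 5 per direction called in the other comparisons. The members and the 40 gene lists were chosen with earlier results of these data known. Alternatives were other offsets, signal minima, quantile normalization, all probe sets, no variance trend, the replicate block, the array set as a block or within each set, only the groups compared, and each array left out.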

Additional observations from a re-analysis of the deposited data

Results flagged for a closer look

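In 10 of the 218 sets of signals examined (a named gene in DEN3/PB or MC/PB livers at 5w), 1 animal lay far from the rest of its group, and chance alone gives about 1 in 20. In DEN3/PB livers, Tap1 was 1500 in animal 1 against 801 in the nearest other, Parp2 was 440 in animal 3 against 377, and Prpsap2 was 875 in animal 5 against 549. In MC/PB livers, animal 4 was high for Cdkn1a (1210, nearest 574), Ccng1 (1330, nearest 999), Hspb8 (3480, nearest 1880) and Vxn (141, nearest 56.6), and low for Mup5 (3120, nearest 4190). MC/PB animal 1 was high for Prps2 (767, nearest 616), and MC/PB animal 2 was low for Wee1 (144, nearest 197).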

How the results depend on the processing

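The 4 calls between DEN3/PB and MC/PB at 5w became 7 with an offset of 100, 11 over all probe sets, 8 with the replicate block, 2 with only the groups compared, 0 within array set 1 and 2 within array set 2, and 2 to 6 with an array left out. Adam8 was called in each of these except within the array sets. With only the groups compared, Adam8 was the 1 of the 4 that kept its call. Neither of the 2 calls within array set 2 was among the 4. The single call between DEN3/PB and DEN30/PB became 3 with an offset of 100, 5 with no filter, 3 with a minimum of 200, 3 without the variance trend, 2 with the replicate block, 3 with only the groups compared, 5 with the array set as a block and 0 to 2 with an array left out. The 24 calls against the mean of TAA/PB, MP/PB and APAP/PB became 37 over all probe sets and 15 with only the groups compared. They became 2 within set 1, 5 within set 2 and 8 to 34 with an array left out. The difference between weeks had 0 calls throughout. Fewer arrays enter the fits within sets and of only the groups compared; the cause of the other changes was not tested.

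Some differences changed sign, among them those of Psmb9 and RT1-Bb, which had an unadjusted p under 0.05. Top2a was -0.0298 after quantile normalization, -0.0302 with the replicate block, -0.0092 with the array set as a block, -0.31 within set 1 and -0.14 to 0.20 with an array left out. Within set 1, Hspb8 was 0.0069, Myc 0.047 and Aldh1a1 -0.0163, and within set 2, Psmb9 was -0.21, RT1-Bb -0.12, Mki67 0.0933 and Cyp3a2 -0.0012. With an array left out, Myc ranged from -0.52 to 0.0443, Ggt1 from -0.31 to 0.12, Mki67 from -0.25 to 0.0051, Aldh1a1 from -0.17 to 0.26, Alb from -0.15 to 0.0117 and Cyp3a2 from -0.0117 to 0.0223. The fit leaving out each array for the gene lists was chosen after seeing the data. Signals near 100 lie close to the arrays' background, which limits values of Adam8, Pvt1 and Pbsn in MC/PB livers.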

Other observations

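When all 18761 probe sets that reached the signal minimum were tested in place of 1 per gene, 11 were called between DEN3/PB and MC/PB livers at 5w. Of these, 5 carried 1 gene symbol (Adam8, Pvt1, Atp6v1d, Cdkn1a and Prps2), 2 carried several and 4 carried none. An unnamed probe set had signals of 1738, 2252, 1720, 1836 and 2110 in DEN3/PB livers, against 522, 596, 822 and 573 in MC/PB livers (limma adjusted p = 0.00289). Another unnamed probe set had 1210, 1828, 1044, 1613 and 1534 in DEN3/PB livers, against 514, 692, 720 and 654 in MC/PB livers (limma adjusted p = 0.00169). Neither overlapped between the groups. A probe set with several symbols was at 427 to 2000 in DEN3/PB livers and at 186 to 461 in MC/PB livers (limma adjusted p = 0.00169), with the lowest DEN3/PB liver below the highest MC/PB liver.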
